A study of Mus musculus with 12 samples.

Results

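Motile cilia genes were followed by RNA sequencing in mouse reproductive tract tissues. The module was a list of 49 gene symbols that encode regulators, dynein motors, radial spokes, central pair proteins and other parts of motile cilia. Of these, 48 were found among 31618 genes in the female and 31669 genes in the male libraries, 38 by symbol and 10 by gene ID under an older symbol. Spag17 was matched by its gene ID to an entry carrying a pseudogene symbol, and Cdhr4 was not matched and not analysed here. There were 12 libraries, 6 female and 6 male.

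The female groups were the uterus of Hoxa-null, compound Hoxa-null, Hoxd-null and compound Hoxd-null mice, the wild-type (WT) oviduct and the WT uterus. The male groups were the vas deferens of the same 4 mutants, the WT caudal epididymis and the WT vas deferens. Hoxa-null mice were homozygous mutant for the block of Hoxa9, Hoxa10 and Hoxa11, and Hoxd-null mice for the block of Hoxd9, Hoxd10 and Hoxd11. Compound Hoxa-null mice carried in addition 1 mutant copy of the Hoxd block, and compound Hoxd-null mice 1 mutant copy of the Hoxa block. Hoxa-null and compound Hoxa-null are together called Hoxa-homozygous, and Hoxd-null and compound Hoxd-null Hoxd-homozygous. All mice had a mixed CD1/129 background and were 3 to 7 months old, and females were taken in diestrus. The series was collected to describe the molecular changes that follow loss of these Hox genes, which pattern the segments of the reproductive tract.

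Each group was 1 library of RNA pooled from 3 animals, so no difference below has a replicate check and no test was possible. Differences are therefore given as values, as counts past a fixed fold (4-fold between tissues, 2-fold between genotypes) and as medians, beside the same for all measured genes. Genes were taken as measured if at least 1 library had 20 normalised reads or more, or if the level of the gene could not be recovered. Normalised reads are read counts multiplied by 1 factor per library, with a floor of 1. Relative depth, read from the spacing of low values, spanned 1.34-fold among female and 1.92-fold among male libraries. The oviduct, the compound Hoxd-null vas deferens and the caudal epididymis were sequenced in another run than the other 9 libraries. In tissue RNA, fewer cells of a type and less RNA per cell cannot be told apart.

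Motile cilia are beating projections built on an axoneme, a ring of microtubule doublets around a central pair, with dynein arms that drive sliding and radial spokes that pass signals from the centre. Multiciliated cells of the oviduct carry many of them and help to move eggs and embryos, and the sperm tail is built on an axoneme of the same plan. Many axonemal genes are thus used both in cilia and in developing sperm, while some are used in cilia and have separate counterparts in sperm. The members were divided on that basis, from textbook knowledge, into 37 genes shared with sperm tails and 10 genes of the cilia class (Ccno, Dnah5, Dnah9, Dnah11, Rsph4a, Sntn, Cdhr3, Sec14l3, Tppp3 and Ccdc153), with Kndc1 unplaced. The placing of Sec14l3, Tppp3, Cdhr3 and Ccdc153 is the least certain.

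Foxj1 and the RFX factors are known regulators of motile cilia genes, and RFX proteins bind X-box sites near gene starts. Promoter sequence from RefSeq (build GRCm38.p6, 250 bases before to 50 bases after the start) was found for 39 of the 48 members. The RFX half-site letters GTTGCC, read on both strands, were present in 19 of the 39, in 4 of 8 cilia class and 15 of 30 shared genes, against 14.1% of the promoters of 27025 genes. The longer GTTGCCAT was present in 4 of 39 (Kif9, Sntn, Tekt1 and Wdr52), against 1.54%. A paired form, GTTNCCNNNGNAAC, was present in 4 of 39 (Hydin, Spag16, Tekt4 and Wdr52), all of the shared class, against 0.936%. The forkhead letters TGTTTAC were present in 3 of 39 (Ak7, Sntn and Tekt3), against 4.05%. The spellings overlap, and a match in letters does not show binding. The stretches below are examples, from the cilia class gene Sntn and from 4 shared genes that hold such letters. Half-site, paired and forkhead letters are in capitals on the gene's own strand.
Sntn, chr14:13670626-13670845, plus strand: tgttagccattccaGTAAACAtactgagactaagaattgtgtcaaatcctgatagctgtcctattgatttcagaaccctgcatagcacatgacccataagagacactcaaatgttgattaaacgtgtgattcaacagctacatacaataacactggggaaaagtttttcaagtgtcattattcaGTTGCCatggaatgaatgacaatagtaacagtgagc
Tekt1, chr11:72361883-72361947, minus strand: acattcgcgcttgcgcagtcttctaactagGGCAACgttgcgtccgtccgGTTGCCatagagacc
Spag16, chr1:69826829-69826910, plus strand: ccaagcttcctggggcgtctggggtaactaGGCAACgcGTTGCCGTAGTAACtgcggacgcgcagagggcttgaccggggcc
Wdr52, chr16:44394640-44394798, plus strand: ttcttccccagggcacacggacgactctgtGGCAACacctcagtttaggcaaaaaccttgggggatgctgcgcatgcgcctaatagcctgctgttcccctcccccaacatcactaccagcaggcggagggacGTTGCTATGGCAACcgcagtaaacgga
Hydin, chr8:110266926-110266976, plus strand: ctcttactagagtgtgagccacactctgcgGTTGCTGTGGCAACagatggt
Sntn lacks the paired form in this window, and the other 4 each hold 2 half-sites or a paired form. As chosen examples they do not describe the classes, in which half-sites were present in 4 of 8 cilia class and 15 of 30 shared genes.

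In the oviduct nearly the whole module stood above the uterus. Of 48 members, all measured, 44 were at least 4-fold higher in the oviduct than in the WT uterus and 0 were lower by that much, against 8.78% higher and 3.61% lower of all 16932 measured genes. The same 44 were at least 4-fold above each of the 5 uteri, against 5.55% of all genes. The median difference was 8.12 log2 units, or 7.63 where the 11 members at the floor in the WT uterus were taken at 3 reads, and the median of all genes was 0.00. Of the 48, 19 were measured through the oviduct alone, since every uterus was under the minimum, so for these a high oviduct value was a condition of being measured.

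Among regulators, Foxj1, the forkhead factor needed for motile cilia, was at a deposited log2 value of 5.72 in the oviduct, against -0.73 in Hoxa-null, -0.50 in compound Hoxa-null, 0.12 in Hoxd-null, -0.12 in compound Hoxd-null and 0.83 in WT uterus. Its difference from the WT uterus was 4.89. Ccno, a cyclin needed for centriole amplification, differed by 5.28 and Rfx3 by 3.98. Rfx2, the closely related factor, differed by 1.63 and did not reach 4-fold. The median of the 4 regulators, 4.44, was below that of every structural group.

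All 9 dynein heavy chains, the motor subunits of the arms, were at least 4-fold higher in the oviduct, from 4.34 for Dnah1 to 10.56 for Dnah3, with a median of 7.17. Dnah9, an outer arm chain of cilia, had 4366.39 normalised reads in the oviduct, against 1.89, 3.00, 5.99 and 1.83 in Hoxa-null, compound Hoxa-null, Hoxd-null and compound Hoxd-null uterus and 6.07 in WT uterus. The inner arm chain Dnah10 had 1410.94 in the oviduct, against 17.96, 31.20, 9.58 and 17.38 in the same mutant uteri and 12.06 in WT uterus. No uterus approached the oviduct for either gene. The other outer arm chains, Dnah5 and Dnah11, differed from the WT uterus by 6.54 and 7.50. The files give Dnah12 in 2 segments, of which the member, the first, differed by 7.76 and the other had 2670.36 normalised reads in the oviduct and 1 in WT uterus.

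The 3 intermediate and light chains followed, with Dnaic1 at 10.35, Dnaic2 at 7.02 and Dnali1 at 8.48. The 7 genes of arm assembly, docking and the axonemal ruler were all at least 4-fold higher, with a median of 9.74. Armc4, an outer arm docking protein, had 1719.30 normalised reads in the oviduct and was at the floor of 1 in all 5 uteri. Ccdc135, a component of the nexin-dynein regulatory complex, had 2186.77 in the oviduct and was likewise at the floor in all 5 uteri. Taking 3 reads as the upper limit of the WT uterus, oviduct levels were at least 523-fold higher for Armc4 and at least 665-fold higher for Ccdc135. Lrrc6 and Zmynd10, which act in the cytoplasmic assembly of dynein arms, were higher by at least 290-fold for Lrrc6 and by 6.09 log2 units for Zmynd10. Ccdc39 and Ccdc40, the ruler proteins of the axonemal repeat, differed by 4.66 and 6.39.

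Tektins are filament proteins of the microtubule doublets. Tekt3 had 380.28 normalised reads in the oviduct, 1.20 in Hoxd-null uterus and 1 in the other 4 uteri, a level at least 116-fold higher in oviduct than in WT uterus. Tekt1 and Tekt4 differed by 7.17 and 7.26, while Tekt2 differed by 1.93, just under 4-fold. Of the 10 radial spoke and central pair genes, 9 were at least 4-fold higher, with a median of 7.46. Spag16, a central pair protein, had 1830.80 normalised reads in the oviduct, against 1.20 in Hoxd-null uterus, 1 in the other 3 mutant uteri and 1.10 in WT uterus. The central pair protein Spag6 had 1936.32 in the oviduct, against 3.78, 2, 1.20 and 3.66 in Hoxa-null, compound Hoxa-null, Hoxd-null and compound Hoxd-null uterus and 4.39 in WT uterus. The mouse genome holds a close copy of Spag6, and reads can be shared between copies. The spoke head genes split, with Rsph4a at 10.89 and Rsph1 at 4.34 but Rsph9 at 1.72. Hydin, a large central pair protein, had a difference of 3.80, near the lower end of the 9.

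The remaining group held the members with the widest differences, with a median of 11.47 over 11 genes. Sntn encodes sentan, a protein of the ciliary tip. It had 1971.66 normalised reads in the oviduct, against 1.89, 1, 3.59 and 1 in Hoxa-null, compound Hoxa-null, Hoxd-null and compound Hoxd-null uterus and 1 in WT uterus. Sec14l3, a lipid transfer protein, had 6213.47 in the oviduct and 1 to 2 across the 5 uteri. Ccdc108 had 4591.17 in the oviduct and Zfp474 had 2293.20, and both were at the floor in all 5 uteri. These are bounds of at least 599-fold for Sntn, 1400-fold for Ccdc108 and 697-fold for Zfp474 over the WT uterus. Wdr52 had 4694.38 in the oviduct, against 1.89, 6.01, 2.40 and 1 in the same mutant uteri and 2.19 in WT uterus. Tppp3, a tubulin-binding protein, was the exception, with a difference of 0.87, the lowest of all 48.

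**Figure D1:**
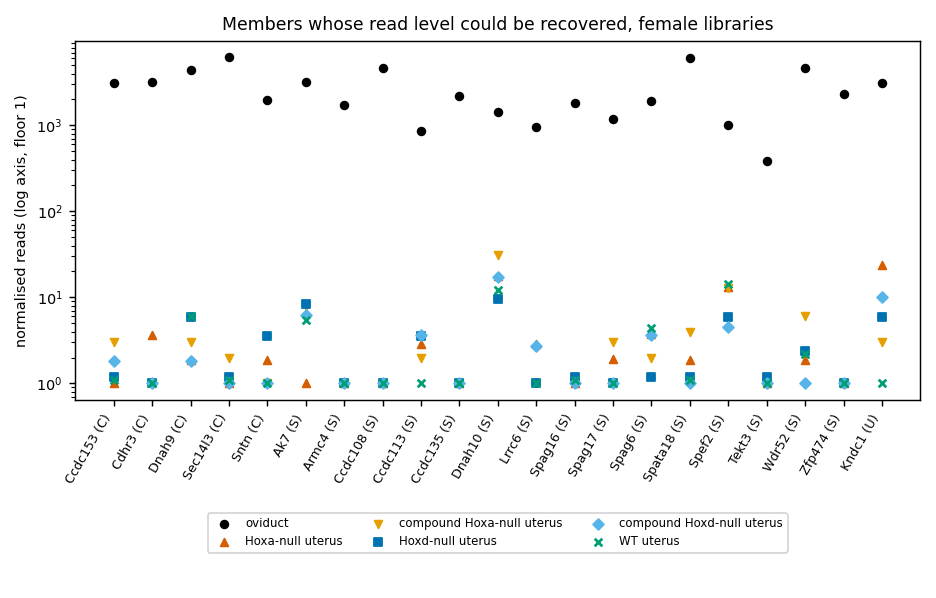
Normalised reads (log axis, floor of 1) of the 21 members whose level could be read in the 6 female libraries, with C for the cilia class, S for genes shared with sperm tails and U for unplaced Kndc1. Every oviduct point lies above every uterus point of the same gene, and most uterus points lie at or just above the floor.

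Both classes were high in the oviduct. In the cilia class 9 of 10 were at least 4-fold above the WT uterus, with a median of 10.19 (9.36 with floor values at 3 reads), and in the shared class 34 of 37, with a median of 7.26 (7.17). Limited to the 6 surest members of the cilia class, the count was 6 of 6 and the median 8.49. Of 8 measured sperm tail genes not used in cilia, 4 were at least 4-fold higher, with a median of 1.46 and a highest value of 5.19 for Slc9a10. Over all 17 matched genes of that list 4 were higher, with a median of 0.25. Only 1 of the 8 was at least 4-fold above all 5 uteri. Dnah17, an outer arm chain of sperm, differed between oviduct and WT uterus by -0.31, and Dnah8, another, by 2.21. Rsph6a, the sperm counterpart of Rsph4a, was at the same value in all 6 female libraries.

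Genes outside the module give the setting of these differences. Of 84 measured other genes of motile cilia, 73 were at least 4-fold higher in the oviduct than in the WT uterus, with a median of 5.33. Of 18 measured genes of centriole amplification and the multiciliated programme, 6 were higher, among them Trp73 (10.25), Foxn4 (7.54), Ccdc78 (6.97) and Ccdc67 (5.46). Genes of intraflagellar transport and primary cilia, which non-motile cilia also use, gave 7 of 33 and a median of 1.35. Of 7 oviduct secretory genes, 2 were at least 4-fold higher than in the WT uterus and 1 was lower, with a median of 0.46. Against all 5 uteri, 0 of the 7 were higher and 1 was lower. Among them Ovgp1, the oviductal glycoprotein of secretory cells, differed from the WT uterus by 5.14, Pax8 by 0.63 and Sprr1a by -2.47. None of 13 epithelial genes and none of 12 smooth muscle genes differed by 4-fold, with medians of -0.27 and -1.08. Of 14 measured ovarian genes, 9 were at least 4-fold higher in the oviduct, with a median of 3.58 and values of 10.82 for Cyp11a1 and 6.99 for Lhcgr. Their part in the result was not tested.

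**Figure D2:**
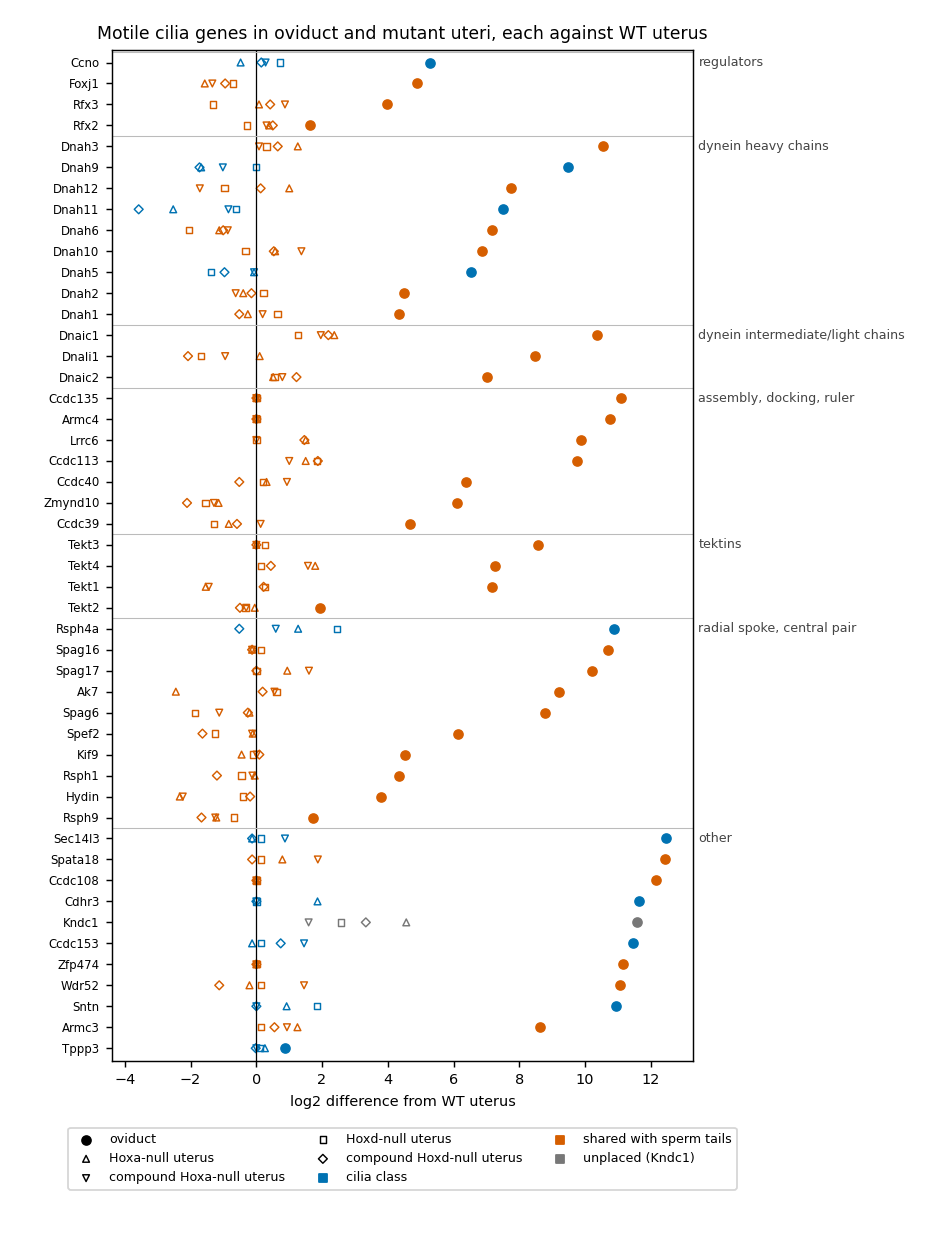
Log2 difference of the oviduct (filled circles) and of the 4 mutant uteri (open symbols) from the WT uterus for all 48 members, grouped by role, in blue for the cilia class and orange for genes shared with sperm tails. Values at the floor are plotted at 1 normalised read. The oviduct points of 44 members lie at or beyond 2 log2 units, while the mutant uteri scatter around 0.

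The mutant uteri did not share the oviduct pattern. At 2-fold against the WT uterus, the Hoxa-null uterus had 9 members higher and 9 lower of 48 (all genes 6.11% higher and 7.44% lower). For the compound Hoxa-null uterus the counts were 9 higher and 8 lower (8.69% and 7.03%). The Hoxd-null uterus had 5 higher and 8 lower (6.37% and 5.94%), and the compound Hoxd-null uterus 5 higher and 9 lower (8.09% and 6.48%). The median difference was 0.00 in each of the 4 uteri. Of the 21 members whose level could be read, 19 were under 20 normalised reads in all 5 uteri, where a few reads move a value in coarse steps.

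Members that set both uteri of a cluster apart were few. Both Hoxa-homozygous uteri lay at least 2-fold above the other 3 uteri for 1 member (0.98% of all genes) and below them for 2 (1.1%), and both Hoxd-homozygous uteri above for 0 (0.915%) and below for 1 (0.36%). Hydin was low in both Hoxa-homozygous uteri, at a deposited log2 value of -2.03 in Hoxa-null and -1.94 in compound Hoxa-null, against -0.11 in Hoxd-null, 0.11 in compound Hoxd-null and 0.30 in WT. Tekt1 was likewise lowest in these 2 uteri, with -1.65 and -1.56 in Hoxa-null and compound Hoxa-null, 0.15 and 0.11 in Hoxd-null and compound Hoxd-null and -0.11 in WT. Tekt4 was the member above, at 0.78 and 0.57 in Hoxa-null and compound Hoxa-null, -0.88 and -0.57 in Hoxd-null and compound Hoxd-null and -1.0 in WT. The member below in the Hoxd-homozygous uteri was the central pair protein Spef2, at 5.99 and 4.57 normalised reads in Hoxd-null and compound Hoxd-null, 13.24 and 13.02 in Hoxa-null and compound Hoxa-null and 14.25 in WT. These 4 genes are a small part of the module, and none of their mutant values approached the oviduct. Foxj1 was below the WT uterus in all 4 mutants, with differences of -1.57, -1.34, -0.72 and -0.95 in Hoxa-null, compound Hoxa-null, Hoxd-null and compound Hoxd-null. Only those in Hoxa-null and compound Hoxa-null passed 2-fold, and all 4 rest on the same WT library. Other members also lay on 1 side of WT in all 4. Zmynd10 was below, by -1.15, -1.29, -1.55 and -2.11 in the same order, and Dnaic1 above, by 2.37, 1.96, 1.26 and 2.19.

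A pair of other genes high in the oviduct, Ovgp1 and Trp73, were higher than WT in 3 of the 4 mutant uteri. These are single genes, and the lists that hold them are counted below. Ovgp1 was above the WT uterus by 2.31 in Hoxa-null, 3.67 in compound Hoxa-null and 1.87 in compound Hoxd-null uterus, and its difference in Hoxd-null uterus was -0.21. Trp73, a transcription factor of the multiciliated programme that also has roles in other epithelia, differed by 4.43, 4.72, -0.13 and 2.06 in Hoxa-null, compound Hoxa-null, Hoxd-null and compound Hoxd-null uterus. In the same 4 uteri Sntn had 1.89, 1, 3.59 and 1 normalised reads and Armc4 was at the floor. The 84 other motile cilia genes gave 4 higher and 15 lower at 2-fold in the Hoxa-null uterus. The compound Hoxa-null uterus had 8 of them higher and 16 lower, the Hoxd-null uterus 5 and 16 and the compound Hoxd-null uterus 6 and 12. The 18 genes of the multiciliated programme, Trp73 among them, gave 2 higher and 1 lower in Hoxa-null and 1 higher and 2 lower in compound Hoxa-null uterus.

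In 1 male library the module was high and split by class. In the compound Hoxa-null vas deferens, 27 of 42 measured members were at least 2-fold above the WT vas deferens and 3 were below (all 17071 measured genes 13.9% and 8.58%), with a median difference of 1.88. Of the 35 measured shared members, 26 were higher and 1 lower, with a median of 2.44. Of the 6 measured members of the cilia class, 1 was higher and 2 were lower, with a median of -0.69. Over all 48 matched members the counts were 29 higher and 3 lower. The 6 members not measured in the male set were Spef2, Ccdc153, Sntn, Cdhr3, Sec14l3 and Zfp474. Another 4, Foxj1, Spag16, Lrrc6 and Armc4, were measured through the compound Hoxa-null library alone. For these a high value there was a condition of being counted.

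Of the roles, the 4 tektins had the highest median difference, 5.45. Tekt1 had 221.09 normalised reads in compound Hoxa-null vas deferens and 27.63 in Hoxa-null, against 1 in Hoxd-null, 1.29 in compound Hoxd-null and 1 in WT. Tekt3 had 186.99 in compound Hoxa-null and 29.47 in Hoxa-null and was at the floor in Hoxd-null, compound Hoxd-null and WT. Both Hoxa-homozygous libraries were high and the other 3 at or near the floor. With the WT vas deferens taken at 3 reads, the compound Hoxa-null level was at least 105-fold higher for Tekt1 and at least 88.5-fold higher for Tekt3, and the Hoxa-null level at least 13.1-fold and 13.9-fold higher. Tekt4 and Tekt2 differed in compound Hoxa-null by 3.37 and 1.52, so all 4 tektins passed 2-fold there.

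Radial spoke and central pair genes gave 6 higher and 1 lower of 9 measured. Spag16 had 42.45 normalised reads in compound Hoxa-null, 2.76 in Hoxa-null, 1 in Hoxd-null, 1.29 in compound Hoxd-null and 1 in WT, a level at least 20.1-fold higher in compound Hoxa-null than in WT. Spag6 differed from WT by 6.96 in compound Hoxa-null, 3.96 in Hoxa-null, 0.89 in Hoxd-null and 2.46 in compound Hoxd-null. Hydin differed by 2.44 in compound Hoxa-null and by -0.56, 0.55 and 0.73 in Hoxa-null, Hoxd-null and compound Hoxd-null. Spag17 and Ak7 differed in compound Hoxa-null by 3.65 and 1.96. Rsph4a, the spoke head protein of cilia, went the other way, with -1.59 in compound Hoxa-null and -1.95 in Hoxa-null against 0.97 in Hoxd-null and 0.81 in compound Hoxd-null. Kif9, a kinesin of the central pair, differed by 0.27 and Rsph9 by -0.68 in compound Hoxa-null, neither past 2-fold.

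The dynein genes divided by part. All 3 intermediate and light chain genes and 6 of 7 assembly and docking genes passed 2-fold in compound Hoxa-null vas deferens, with medians of 3.70 and 3.04. Dnaic2, an outer arm intermediate chain, had 67.99 normalised reads there, 10.13 in Hoxa-null, 7.83 in Hoxd-null, 7.76 in compound Hoxd-null and 1.41 in WT. Lrrc6 had 77.80 in compound Hoxa-null, 10.91 in Hoxa-null, 4.89 in Hoxd-null, 6.46 in compound Hoxd-null and 3.52 in WT. Armc4 had 35.37 in compound Hoxa-null, 1.84 in Hoxa-null, 1 in Hoxd-null, 1.29 in compound Hoxd-null and 1.41 in WT. For each of these genes the compound Hoxa-null library was the highest vas deferens by a wide margin. For Lrrc6 and Armc4 a high value there was also a condition of being measured. Of the 9 heavy chains only Dnah6 (3.50) and Dnah1 (1.22) passed 2-fold upward, and Dnah5 (-1.62) and Dnah12 (-1.05) downward. The second segment of Dnah12 differed by 1.49, so the gene cannot be placed in either direction. Dnah5 had 16.80 normalised reads in compound Hoxa-null and 9.21 in Hoxa-null, against 56.74 in Hoxd-null, 27.14 in compound Hoxd-null and 51.41 in WT.

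Of the regulators, Foxj1 had 51.10 normalised reads in compound Hoxa-null vas deferens, 13.46 in Hoxa-null, 6.62 in Hoxd-null, 4.86 in compound Hoxd-null and 7.07 in WT. Rfx3 differed in compound Hoxa-null by 1.96, Rfx2 by 0.70 and Ccno by 2.26, and Ccno differed by 2.18 in Hoxa-null. In the remaining group, Armc3 had 128.23 normalised reads in compound Hoxa-null, 14.74 in Hoxa-null, 1 in Hoxd-null, 3.88 in compound Hoxd-null and 1 in WT. Ccdc108 had 83.55 in compound Hoxa-null, 10.13 in Hoxa-null, 1 in Hoxd-null, 1.29 in compound Hoxd-null and 1 in WT. Against 3 reads in WT these are at least 60.7-fold for Armc3 and at least 39.5-fold for Ccdc108 in compound Hoxa-null. The ciliary tip gene Sntn stayed at 1.77 normalised reads in compound Hoxa-null, 1.29 in compound Hoxd-null and 1 in Hoxa-null, Hoxd-null and WT, and Cdhr3 was at the floor in all 6 male libraries.

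**Figure D3:**
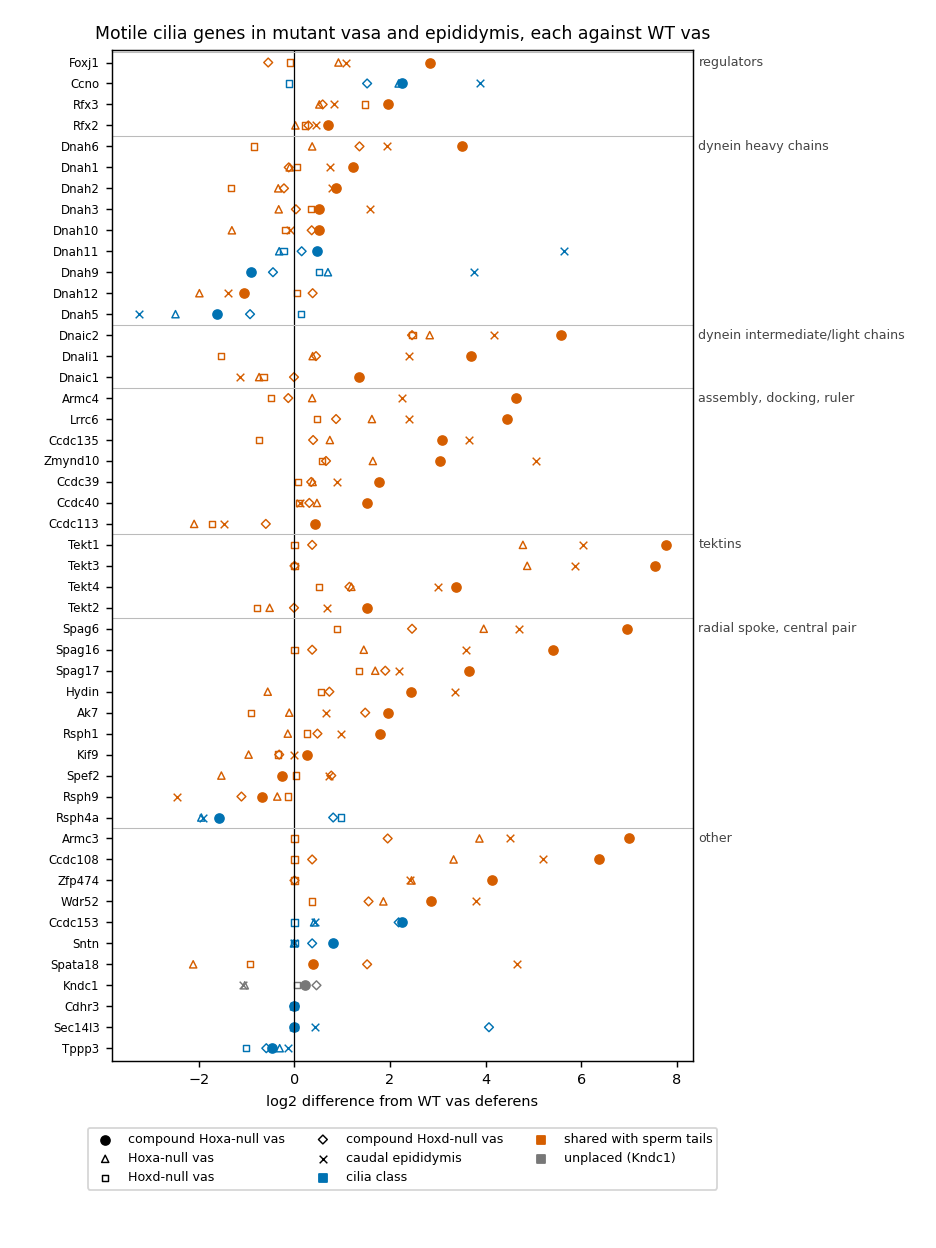
Log2 difference of the compound Hoxa-null vas deferens (filled circles), the other 3 mutant vasa (open symbols) and the caudal epididymis (crosses) from the WT vas deferens for all 48 members, in blue for the cilia class and orange for genes shared with sperm tails. Values at the floor are plotted at 1 normalised read. Shared members reach 7.78 in compound Hoxa-null, while Dnah5 and Rsph4a of the cilia class lie at -1.62 and -1.59.

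The other mutants moved less. In the Hoxa-null vas deferens 13 of 42 members were at least 2-fold higher and 7 lower (all genes 10.8% and 8.67%), with a median of 0.37, and 12 were higher when WT floor values were taken at 3 reads. The Hoxd-null vas deferens had 3 higher and 4 lower (3.46% and 5.01%), with a median of 0.00. The compound Hoxd-null vas deferens had 10 higher and 1 lower (7.76% and 5.47%), with a median of 0.37. Both Hoxa-homozygous vasa lay at least 2-fold above the other 3 for 6 members (4.05% of all genes), which were Tekt1, Tekt3, Spag6, Spag16, Ccdc108 and Armc3. Spag16 rests on 2.76 normalised reads in Hoxa-null, a bound of only 1.31-fold when WT was taken at 3 reads. The Hoxa-homozygous vasa lay below for Rsph4a and the first segment of Dnah12 (2.3%), but the second segment of Dnah12, at -0.27 in Hoxa-null and 1.27 in compound Hoxa-null, did not lie below the others. Without the Hoxa-null library, 24 members lay above in the compound Hoxa-null alone. These include Foxj1, Spag16, Lrrc6 and Armc4, which were measured through that library alone. The share of all genes was not taken here, so this count is not read as a result about the members. For the Hoxd-homozygous vasa the counts were 0 above (0.158%) and 0 below (0.644%).

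The WT vas deferens was sequenced in another lane than the Hoxa-null, compound Hoxa-null and Hoxd-null vasa, so these 3 were also compared with each other, a comparison added after the data were seen. Against the Hoxa-null vas deferens of the same lane, 32 of 42 members were at least 2-fold higher in compound Hoxa-null and 1 was lower (7.7% and 2.02%), with 31 of the 35 shared members among the 32. Against the Hoxd-null vas deferens of the same lane, 29 were higher and 4 lower (13.7% and 6.97%), with 28 shared members higher and 3 of the 6 cilia class members lower. The compound Hoxa-null library was at least 2-fold above all 4 other vasa for 24 members (4.63%), all of the shared class, and below them for 0 (0.65%). At any margin it was the highest of the 5 vasa for 32 of 35 shared and 2 of 6 cilia class members, against 20.5% of all genes. Of the other 3 shared members, 2 were highest in compound Hoxd-null (21.8%) and 1 in WT (19.9%). The 24 and the 32 both include Foxj1, Spag16, Lrrc6 and Armc4, which were measured through the compound Hoxa-null library alone.

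Genes of developing sperm moved with the shared class. In compound Hoxa-null vas deferens 19 of 28 measured spermatid genes were at least 2-fold above WT and 5 below, with a median of 3.74, and 10 of 12 measured meiotic genes were above and 0 below, with a median of 4.33. The read minimum kept these 12 of 21 matched meiotic genes. For those at low levels elsewhere, a high value in this or another high library was a condition of being counted. Ldhc, a lactate dehydrogenase isoform made in male germ cells, had 1154.75 normalised reads in compound Hoxa-null, 195.74 in Hoxa-null, 6.85 in Hoxd-null, 9.05 in compound Hoxd-null and 11.97 in WT. Mael, a germ cell protein of transposon silencing, had 754.15 in compound Hoxa-null, 98.51 in Hoxa-null, 3.91 in Hoxd-null, 3.88 in compound Hoxd-null and 3.52 in WT. As for Tekt1 and Armc3, the compound Hoxa-null library was the highest vas deferens and the Hoxa-null library the next. Summed over the 11 spermatid genes whose level could be read, normalised reads ranged from 81.0 to 2150 over the 4 mutant vasa, with 205 in WT, and over 16 such meiotic genes from 39.3 to 1660, with 25.2 in WT. In compound Hoxa-null, Ldhc alone gave 1154.75 of the 2150 and Mael alone 754.15 of the 1660. Over 13 such shared members the sums ranged from 73.0 to 1030 over the 4 mutant vasa, with 62.5 in WT, and the compound Hoxa-null library was highest in all 3 sums. Among genes with at least 10 reads in the Hoxa-null library, the level in compound Hoxa-null over that in Hoxa-null was 2.5 to 8.7 for 9 shared members (median 6.71), 3.72 to 7.22 for 6 spermatid genes (6.2) and 5.66 to 11.4 for 5 meiotic genes (8.2).

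Not every germ cell gene followed. Prm1, the protamine that packs DNA in late spermatids, had 2.65 normalised reads in compound Hoxa-null and 4.61 in Hoxa-null, against 28.37 in Hoxd-null, 90.48 in compound Hoxd-null and 93.64 in WT. Prm2 differed from WT by -5.14 in compound Hoxa-null and Tnp1 by -0.51. The meiotic genes Dazl and Sycp3 differed there by 3.37 and -0.15. Smooth muscle genes were lower in both Hoxa-homozygous vasa, with 7 of 12 at least 2-fold lower in each and medians of -1.22 in compound Hoxa-null and -1.06 in Hoxa-null. Of 13 epithelial genes, 0 passed 2-fold in compound Hoxa-null and 1 in Hoxa-null. Of 11 genes of epididymal epithelium, 5 were higher and 2 lower in compound Hoxa-null and 7 higher and 1 lower in Hoxa-null. The part of these cell types in the result was not tested.

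**Figure D4:**
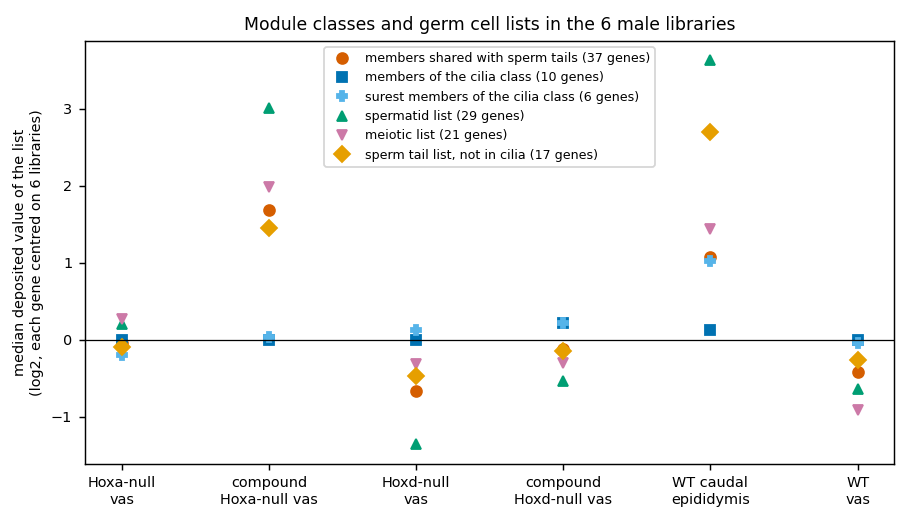
Median deposited log2 value, each gene centred on the 6 male libraries, of the 2 classes of members, of the 6 surest members of the cilia class and of 3 germ cell lists in each male library. The shared class lies at 1.68 in compound Hoxa-null vas deferens and at 1.07 in caudal epididymis, and the germ cell lists are high in the same 2 libraries. The 10 members of the cilia class, of which 4 were not measured and lie mostly at the floor, have medians from 0.00 to 0.21, while the 6 surest of them lie at 0.03 in compound Hoxa-null vas deferens and at 1.02 in caudal epididymis.

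Motor and spoke genes with separate copies for cilia and sperm tails were set side by side. Of the sperm copies, Dnah17 differed from the WT vas deferens by 6.56 in compound Hoxa-null and 4.31 in Hoxa-null, and by 0.99 in Hoxd-null and 1.98 in compound Hoxd-null. Dnah8 had 191.16 normalised reads in compound Hoxa-null, 59.97 in Hoxa-null, 33.26 in Hoxd-null, 25.85 in compound Hoxd-null and 22.54 in WT. Rsph6a had 121.16 in compound Hoxa-null and 19.34 in Hoxa-null and was at the floor in Hoxd-null, compound Hoxd-null and WT. All 3 sperm copies were highest in the same library. Of the cilia copies, Dnah5 and Rsph4a were lower in that library than in WT, as given above, and Dnah9 and Dnah11 differed by -0.91 and 0.47, neither past 2-fold. The list of sperm tail genes not used in cilia, which holds these 3, gave 10 higher and 2 lower of 16 in compound Hoxa-null, with a median of 1.47.

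**Figure D5:**
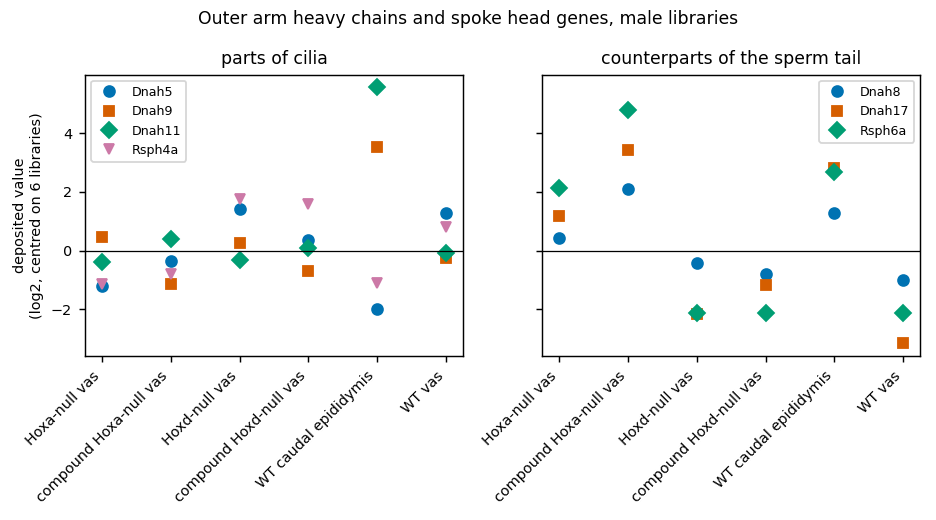
Deposited log2 values, centred on the 6 male libraries, of outer arm heavy chains and spoke head genes of cilia (left) and of their sperm tail counterparts (right). Dnah8, Dnah17 and Rsph6a peak in the compound Hoxa-null vas deferens, and Dnah9 and Dnah11 in the caudal epididymis.

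Genes outside the module but of the same pathway followed the shared members in part. In compound Hoxa-null vas deferens 43 of 79 measured other motile cilia genes were at least 2-fold above WT and 3 below, with a median of 1.29. Lrrc34 (7.61), Ccdc147 (6.91), Ttll6 (6.44) and Morn5 (5.98) had the widest differences. In the multiciliated programme 5 of 16 were higher and 0 lower, with a median of 0.35, led by Rfx4 (5.56) and Ccdc67 (3.44). Intraflagellar transport and primary cilium genes gave 1 higher and 0 lower of 33, with a median of -0.01.

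The caudal epididymis, which stores sperm, had 20 of 42 members at least 4-fold above the WT vas deferens and 2 below (all genes 9.26% and 4.07%), with a median difference of 1.76. Of the shared class 17 of 35 were higher and 1 lower, with a median of 1.93, and of the cilia class 3 of 6 were higher and 1 lower, with a median of 1.81. The classes thus gave similar medians here, and the 5 measured of the 6 surest cilia class members had a median of 3.75. Tekt1 had 66.18 normalised reads in the epididymis, against 221.09 in compound Hoxa-null, 27.63 in Hoxa-null and 1 in WT vas deferens. Zmynd10 had 168.83 in the epididymis, against 41.97 in compound Hoxa-null, 15.88 in Hoxa-null, 7.52 in Hoxd-null, 8 in compound Hoxd-null and 5.05 in WT vas deferens. Only 4 members lay at least 4-fold above all 5 vasa (2.55%), which were Zmynd10, Spata18, Dnah9 and Dnah11, and 0 lay below (1.05%). Counted against the compound Hoxa-null vas deferens in place of WT, the epididymis had 4 members at least 4-fold higher and 5 lower. The share of all genes was not taken for this comparison, so these counts are not read as a result about the members.

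The outer arm chains of the cilia class parted in the epididymis. Dnah11 was at a deposited log2 value of 5.56 in the epididymis, against -0.39, 0.40, -0.31 and 0.08 in Hoxa-null, compound Hoxa-null, Hoxd-null and compound Hoxd-null vasa and -0.08 in WT. Dnah9 was at 3.51 in the epididymis, against 0.45, -1.15, 0.26 and -0.70 in the same mutant vasa and -0.26 in WT. Dnah5 was the reverse, at 5.40 normalised reads in the epididymis and 51.41 in WT vas deferens. Cdca7l, which shares its span with Dnah11, differed between epididymis and WT vas deferens by 0.11. Spata18, a protein of mitochondrial quality control, was at 4.47 in the epididymis, against -2.30, 0.20, -1.13 and 1.33 in the same mutant vasa and -0.20 in WT. Its low value in Hoxa-null was not shared by Tekt1 or Spag6.

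Spermatid genes were high in the epididymis too, with 25 of 28 measured at least 4-fold above the WT vas deferens and a median of 4.42, and 9 of 12 meiotic genes with a median of 4.18. The read minimum limits the count of meiotic genes here as it does in compound Hoxa-null. Prm1 had 1354.89 normalised reads there, against 2.65 in compound Hoxa-null and 93.64 in WT vas deferens. Akap4, a protein of the sperm tail sheath, had 687.99 in the epididymis, against 103.05 in compound Hoxa-null and 25.35 in WT. The epididymal level over that in compound Hoxa-null was taken for genes with at least 10 reads in Hoxa-null, which leaves out Prm1. It was 0.179 to 4.02 for 9 shared members (median 0.318) and 0.224 to 1.81 for 6 spermatid genes (0.715). For 5 meiotic genes it was 0.21 to 0.443 (0.242). Summed over all spermatid genes whose level could be read, the epididymis had 3940 normalised reads and compound Hoxa-null 2150. The sums were 489 and 1660 for meiotic genes and 502 and 1030 for shared members. Of 11 genes of epididymal epithelium, 6 were at least 4-fold higher in the epididymis than in the WT vas deferens and 1 was lower. The part of sperm and germ cells in the epididymal values was not tested.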

How the data were processed

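Per the labels, RNA extraction used Qiagen RNeasy Mini columns and library preparation Illumina TruSeq. TopHat and the mouse build mm9 were used, per the submitters' processing notes, and runs and lanes were read from the file headers. How reads were counted, on which strand, and how they were normalised is not given in the sources used here. The deposited values are log2 values with the median of each gene at 0 over the 6 libraries of its sex, so levels were compared only within a sex. No read counts or totals were used from the authors. The spacing of low values showed that counts, kept to 0.01 read, had been scaled by 1 factor per library, with values under 1 set to 1, which allowed normalised reads to be recovered for 21 female and 18 male members. Of values above the floor in genes with at least 2 floor libraries, 85.6% (female) and 84.4% (male) lay within 0.02 of a 0.01-read step of a whole multiple of it, with a small allowance for rounding at high values. For the other genes, differences of deposited values were used. Recovery and counts were tested on simulated data. The 2-fold calls were tested only for genes with a base level of 60 normalised reads or more. Counts at lower levels, where most uterus values of the members lie, were not covered.

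A gene at the floor in the WT library was set at 3 reads for a lower bound of its fold, 3.29 normalised reads in uterus and 2.11 in vas deferens, a limit for counting error only. With 1 library per group no test was made. The minimum of 20 normalised reads left 16932 female and 17071 male genes. The members, classes, lists and thresholds were chosen with earlier results of these data known. All members could be named, and from each other list up to 4 genes with the largest difference plus the defining genes of a cell type. Of the 48 members, 9 share part of their span with another coding gene. They are Dnah11, Dnaic1, Dnali1, Rsph1, Rsph9, Spag6, Spag17, Ccdc39 and Ccdc40. Python 3.11.15, numpy 2.4.6, pandas 2.3.3 and matplotlib 3.10.9 were used.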

Additional observations from a re-analysis of the deposited data

How the results depend on the processing

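Counts were repeated with the values unshifted, without and with a higher minimum level, at other folds, against other libraries and without each library. Of 190 alternative counts, 143 were within 1.5 times the given count and 47 were not. Shares of all genes are not given beside the alternative counts, so none of them is read as a result about the members. The oviduct count of 44 was within that range in every alternative tried. At 4-fold, members higher and lower than in WT uterus were 2 and 3 in Hoxa-null, 0 and 1 in compound Hoxa-null, 2 and 1 in Hoxd-null and 2 and 3 in compound Hoxd-null. The balance turned in the compound Hoxa-null and Hoxd-null uteri, on counts too small to give a direction. In the vas deferens members higher and lower were 7 and 3 in Hoxa-null, 1 and 0 in Hoxd-null and 2 and 0 in compound Hoxd-null, with 0 lower in compound Hoxa-null. The balance turned in Hoxd-null, again on too few members to give a direction. Against the Hoxa-null vas deferens of the same lane, 1 member was lower in compound Hoxa-null. Without a minimum level, 2 members of the cilia class were higher in compound Hoxa-null, the added one being Ccdc153.

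Members setting both Hoxa-homozygous uteri apart in either direction were 0 at 4-fold, 12 with no minimum gap and 3 to 6 without 1 library, and for the Hoxd-homozygous uteri 0, 9 and 1 to 4. For the Hoxa-homozygous vasa, members above were 3 at 4-fold, 17 with no minimum gap and 6 to 24 without 1 library (10 without compound Hoxd-null and 24 without Hoxa-null). Members below were 0 at 4-fold and 2 to 6 without 1 library (6 without compound Hoxa-null). For the Hoxd-homozygous vasa, members above were 2 with no minimum gap and 0 to 2 without 1 library, and members below 4 and 0 to 7 (7 without WT).

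In the caudal epididymis, members higher were 12 against the mean of the 5 vasa, 8 against Hoxa-null and 4 against compound Hoxa-null. Members lower were 1 at a minimum of 60 normalised reads, 7 at 2-fold, 1 against Hoxa-null and 5 against compound Hoxa-null, where the balance turned, and 1 lay below all 5 vasa at 2-fold. The cause of these shifts was not tested. No paired analysis was possible because each group is 1 library. Each library pools 3 animals, so the spread between animals is not known, and members at the floor can be bounded only.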

Other observations

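Values of a few single genes are added here. Sec14l3, a lipid transfer protein, had 16.80 normalised reads in compound Hoxd-null vas deferens and 1.35 in caudal epididymis, and was at the floor in the other 4 vasa. Kndc1, a member whose role in cilia is not well defined, had 23.64, 3.00, 5.99 and 10.06 normalised reads in Hoxa-null, compound Hoxa-null, Hoxd-null and compound Hoxd-null uterus and 1 in WT uterus, with 3084.63 in the oviduct. Sprr1a, a cornified envelope protein outside the module, was counted above among the oviduct secretory genes. It differed from the WT uterus by 4.83, 1.88, 0.69 and 2.25 in the same mutant uteri and by -2.47 in the oviduct. Tppp3 had 92.59, 82.99, 56.45 and 76.26 normalised reads in Hoxa-null, compound Hoxa-null, Hoxd-null and compound Hoxd-null vasa, 105.30 in caudal epididymis and 114.11 in WT vas deferens, so it was present in every male library while Cdhr3 was at the floor in all.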
